A study of Homo sapiens with 12 samples.

Results

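The box H/ACA small nucleolar RNAs are guide RNAs that direct the conversion of uridine to pseudouridine in rRNA. They were examined in RNA from HEK293T cells, an established line of human embryonic kidney origin that carries the SV40 large T antigen, either wild-type (HEK WT) or with CRISPR-Cas9 knockout of HNRNPUL1 (HEK UL1 KO). The members were all rows of both count tables whose symbol starts with SNORA, without SNORA73A and SNORA73B and without rows marked by a numbered suffix as further copies of a gene. This left 180 of the 192 SNORA rows and of the 61163 genes in the tables. Total RNA was sequenced without rRNA depletion from the nucleolar (NO) and the combined cytoplasmic-nuclear (CN) fractions of untreated cells of both genotypes, with 3 libraries per group and 12 in all. Whether the knockout line is 1 clone is not given in the sources used here, and p-values describe only the spread between these libraries. In such bulk samples, fewer cells with an RNA and less of it per cell cannot be told apart.

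A box H/ACA RNA folds into hairpins that are followed by 2 short motifs, box H (ANANNA) in the hinge and box ACA close to the 3' end. A loop in a hairpin pairs with rRNA on both sides of the target uridine. Each RNA is bound by dyskerin (DKC1), the pseudouridine synthase, together with NOP10, NHP2 and GAR1, and the particle works in the nucleolus. In human cells most of these RNAs have no promoter of their own: they lie in introns of host genes, are released when the host transcript is spliced, and are protected from exonucleases by the proteins bound to them.

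Of the 180 members, 147 had a strand in GENCODE release 44 and could be read in the 5' to 3' direction from GRCh38. An ACA exactly 3 bases before the 3' end was found on the sense strand in 124 of these 147 sequences (84.4%), against 4 of 285 box C/D rows (1.4%), and a match to ANANNA in the middle 30% of the length in 139 of 147 (94.6%), against 145 of 285 (50.9%). By position, 27 members lay within genes for ribosomal proteins or translation factors, 77 within other protein-coding genes, 21 within non-coding RNA genes and 8 within pseudogenes or other genes, 14 had no host on their strand, and 33 had no strand. The sequences below are those of 6 members described in detail in the genotype comparison, with box H and box ACA in capitals where the search found them. The first 3 lie in SNHG12 on the minus strand of chromosome 1 and had the largest falls in NO, SNORA24 had the largest fall in CN among members with at least 50 counts, and SNORA10 and SNORA81 were among the most abundant members. No ACA was found near the 3' end of SNORA44 or SNORA81 as annotated.
SNORA61 (chr1:28579764-28579893, minus): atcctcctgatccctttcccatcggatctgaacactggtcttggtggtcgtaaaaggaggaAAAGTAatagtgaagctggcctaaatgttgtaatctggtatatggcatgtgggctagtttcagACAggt
SNORA44 (chr1:28580381-28580512, minus): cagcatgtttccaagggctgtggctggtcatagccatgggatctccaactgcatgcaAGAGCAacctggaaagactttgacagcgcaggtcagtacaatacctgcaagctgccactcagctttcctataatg
SNORA16A (chr1:28580920-28581053, minus): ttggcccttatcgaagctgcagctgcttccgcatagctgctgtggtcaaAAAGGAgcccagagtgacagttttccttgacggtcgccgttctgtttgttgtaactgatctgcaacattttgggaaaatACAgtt
SNORA24 (chr4:118279190-118279320, plus): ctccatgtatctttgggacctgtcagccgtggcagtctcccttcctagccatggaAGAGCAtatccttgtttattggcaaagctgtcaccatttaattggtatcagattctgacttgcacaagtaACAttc
SNORA81 (chr3:186786676-186786852, plus): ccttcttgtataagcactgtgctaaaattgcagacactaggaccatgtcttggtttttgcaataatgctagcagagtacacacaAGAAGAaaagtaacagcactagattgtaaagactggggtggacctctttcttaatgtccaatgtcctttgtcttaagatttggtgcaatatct
SNORA10 (chr16:1962334-1962466, minus): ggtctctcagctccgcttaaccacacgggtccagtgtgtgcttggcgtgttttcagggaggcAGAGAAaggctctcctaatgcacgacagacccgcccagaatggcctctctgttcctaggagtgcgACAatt

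The libraries held 37141666 to 83019079 counts in NO and 54349399 to 104040073 in CN, of which rRNA took 55.3 to 65.1% and 73.9 to 78.7%. HNRNPUL1 was lower in HEK UL1 KO in every library, with 15.2, 21.6 and 9.30 CPM (counts per 1000000 counts of the library, scaled by TMM within the fraction) in NO of HEK WT and 4.09, 3.86 and 3.56 in NO of HEK UL1 KO (log2 fold change -2.00 ± 0.32, SE; adjusted p = 0.006491, edgeR), and its fall in CN was -1.83 ± 0.08 (adjusted p = 2.12e-07, edgeR). The nucleolar RNAs SNORD3A, SNORD118 and RMRP were higher in NO than in CN in HEK WT (log2 fold changes 4.67, 3.75 and 1.93), and GAPDH, ACTB and EEF1A1 lay between -0.86 and -0.56. The kidney-line genes PAX2 and LHX1 were detected, HBB averaged at most 3 counts per library and ALB at most 13.7, and the blood gene PTPRC averaged 84.3 counts in NO and 19.2 in CN. Replicate 3 of HEK WT in NO stood apart from the other NO libraries of its genotype, with a TMM factor (the scaling that aligns most genes between libraries) of 1.40 against 0.690 and 0.622, the lowest rRNA share and the largest share of counts on the members, and the NO comparison is given with and without it.

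The members were a small part of the RNA in both fractions and were much better represented in NO. They took 721, 376 and 1187 per 1000000 counts in the NO libraries of HEK WT and 451, 499 and 341 in those of HEK UL1 KO. The HEK UL1 KO libraries lay within or below the HEK WT range, the groups overlapped, and the means were 761 ± 407 and 430 ± 81.1 (SD, n = 3; exact permutation p = 0.3, two-sided). In the CN libraries they took 70.4, 65.4 and 52.1 per 1000000 counts in HEK WT and 49.3, 48.2 and 45.2 in HEK UL1 KO. The CN groups did not overlap, the mean in HEK UL1 KO was 0.759 times that in HEK WT, and the exact two-sided p of 0.1 is the smallest that 3 against 3 libraries can give. These shares are of the total counts and are not scaled by TMM. They are sums, in which abundant rows weigh most. In CN of HEK WT and HEK UL1 KO, SNORA109 had 117 and 166 CPM per kilobase of annotated length (scaled over the 12 libraries). SNORA10 had 30.9 and 15.2. The CN sums thus include a large row that rose, and the value of 0.759 is not that of most members. The same holds for the other ratios below that use the CN sums.

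Box C/D snoRNAs mostly guide 2'-O-methylation, but the box C/D rows used here also include SNORD3A and SNORD118, which act in pre-rRNA processing. The ratio of member counts to counts on all box C/D rows gave a measure within the snoRNAs, not one of modification guides alone. In CN it was 0.0639, 0.0596 and 0.0559 in HEK WT and 0.0407, 0.0442 and 0.0486 in HEK UL1 KO, so that each knockout library was below each wild-type library (mean ratio of 0.744, exact permutation p = 0.1). In NO it was 0.0209, 0.0142 and 0.0243 in HEK WT and 0.0131, 0.0152 and 0.0160 in HEK UL1 KO. The NO groups overlapped at replicate 2 of HEK WT, although the ratio of the means was again 0.744 (exact permutation p = 0.3). The box C/D rows themselves took 1044 ± 96.6 and 1076 ± 142 per 1000000 counts in CN of HEK WT and HEK UL1 KO (exact permutation p = 1).

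**Figure D1:**
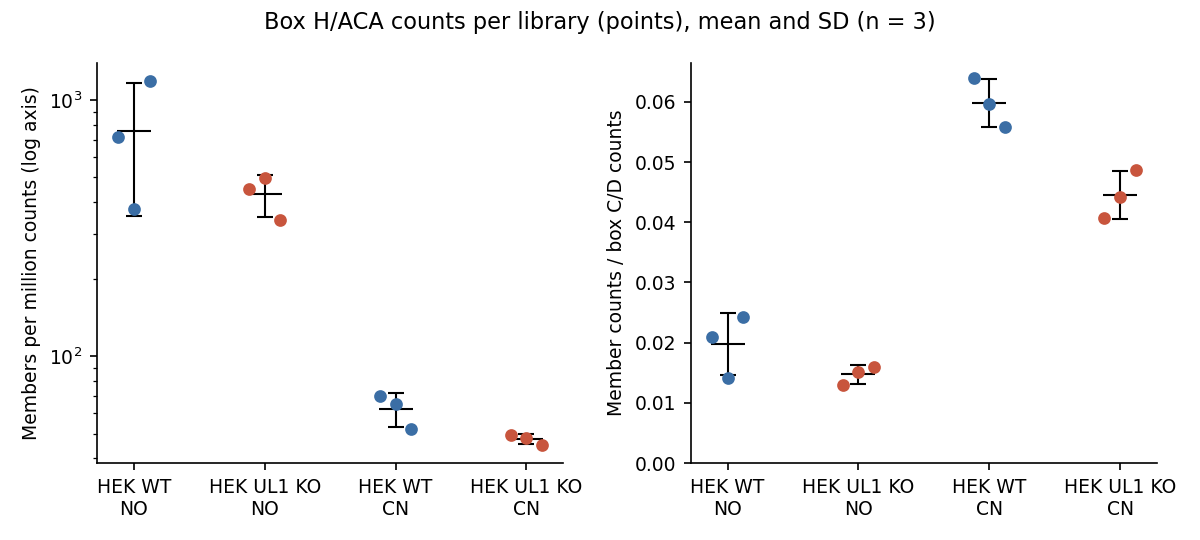
Counts on the 180 members per 1000000 counts (left, log axis) and their ratio to counts on box C/D snoRNAs (right) for each library (points), with the mean and SD of each group (n = 3). The genotypes overlap in NO and are separated in CN, and the members' share is 12.2 times larger in NO than in CN in HEK WT.

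Whether loss of hnRNP UL1 changed the level of single members was tested in each fraction over all genes (edgeR's quasi-likelihood test, adjusted p under 0.05). In NO, 117 of the 180 members passed the filter on low counts, 27 were lower in HEK UL1 KO and 0 were higher. Among all genes tested in NO, 0.574% were lower and 0.365% higher, against 23.1% and 0% of the members tested. The log2 fold change was negative for each of the 117 members and ranged from -2.84 to -0.05, with a median of -1.20 beside 0.00 for all genes tested. Of the members, 0 were higher and 95 lower at an unadjusted p under 0.05, and DESeq2 called 58 lower and 0 higher of 170.

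The filter admits a member that reached the minimum in the libraries of 1 genotype alone, and the calls in NO rested on single libraries. With at least 10 counts required in every library, 8 of 91 members were lower. Without replicate 1 of HEK WT the count of members called fell to 4, without replicate 1, 2 or 3 of HEK UL1 KO it was 20, 10 and 11, and without replicate 2 or 3 of HEK WT it was 45 and 87. With total counts in place of TMM it was 0, the median of all genes moved to 0.40, and the median of the members relative to it was -1.23, beside -1.20 with TMM.

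The 3 largest falls in NO were those of SNORA61, SNORA16A and SNORA44, which are all encoded in introns of SNHG12. SNORA61 had 15.4, 6.68 and 14.4 CPM in NO of HEK WT and 1.56, 2.17 and 1.38 in HEK UL1 KO (log2 fold change -2.84 ± 0.35, adjusted p = 0.000503, edgeR). SNORA16A had 27.96, 18.1 and 27.6 CPM in HEK WT and 3.74, 4.47 and 3.33 in HEK UL1 KO (-2.68 ± 0.31, adjusted p = 0.000283, edgeR). SNORA44 had 19.97, 10.7 and 18.4 CPM in HEK WT and 2.08, 4.24 and 1.48 in HEK UL1 KO (-2.66 ± 0.38, adjusted p = 0.00245, edgeR). For each of these 3 RNAs every wild-type library was above every knockout library, replicate 2 of HEK WT being the lowest of its group. Such separation was a condition for naming members by their fall, so it adds no evidence. Each was called without any 1 library and under every other alternative except total counts, where the log2 fold changes were -2.52, -2.33 and -2.34.

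The other members with large falls in NO came from other host genes. SNORA65, in an intron of the ribosomal protein gene RPL12, had 5.70, 3.37 and 5.01 CPM in HEK WT and 1.31, 1.55 and 1.15 in HEK UL1 KO (-1.81 ± 0.29, adjusted p = 0.0061, edgeR). SNORA26, in the non-coding gene DANCR, had 16.5, 6.87 and 11.5 CPM against 3.08, 4.09 and 3.26 (-1.74 ± 0.32, adjusted p = 0.0181, edgeR). The genotypes did not overlap for either, which was again a condition for naming them. SNORA53 in SLC25A3, the gene of the mitochondrial phosphate carrier, fell by 1.85 ± 0.35, SNORA74B in ATP6V0E1 by 1.78 ± 0.37 and SNORA57 in CSKMT by 1.73 ± 0.36 on the log2 scale (edgeR adjusted p = 0.0187, 0.0344 and 0.0299). SNORA26, SNORA53, SNORA74B and SNORA57 were no longer called without replicate 1 of HEK WT (-1.38, -1.47, -1.40 and -1.75). SNORA53, SNORA74B and SNORA57 were also lost without replicate 2 of HEK UL1 KO (-1.65, -1.67 and -1.55), and the last 2 of these without its replicate 3 (-1.73 and -1.54). With 10 counts in every library these 3 were not called either (-1.76, -1.68 and -1.64). The remaining members called in NO had log2 fold changes of -2.03 to -1.31.

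In CN, where the members were sparse (2454 to 5888 counts per library in all), 77 members could be tested, and HEK UL1 KO had 52 of them lower and 1 higher. This was 67.5% lower, beside 22.3% of all genes tested in CN, and 1.3% higher, beside 15.6% of all genes. The median log2 fold change of the members tested was -1.11, against 0.04 for all genes, and 72 of the 77 were negative. Leaving out 1 library gave 35 to 54 members called, the lowest without replicate 3 of HEK UL1 KO. With total counts 27 members were lower and 1 higher, while the median relative to all genes was -1.14, beside -1.15 with TMM.

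SNORA24, in the non-coding gene SNHG8, had the largest fall in CN among members with a mean of at least 50 counts, from 1.66, 0.957 and 1.43 CPM in HEK WT to 0.465, 0.333 and 0.354 in HEK UL1 KO (-1.80 ± 0.25, adjusted p = 0.000299, edgeR). SNORA81, in EIF4A2, a gene of a translation initiation factor, had 1.83, 1.42 and 2.25 CPM in HEK WT and 0.670, 0.733 and 0.456 in HEK UL1 KO (-1.55 ± 0.22, adjusted p = 0.000371, edgeR). SNORA10, in the ribosomal protein gene RPS2, had 3.49, 2.57 and 3.47 CPM in HEK WT and 1.86, 1.79 and 1.32 in HEK UL1 KO (-0.93 ± 0.17, adjusted p = 0.0014, edgeR). The wild-type libraries of these members were above all knockout libraries, which was a condition for naming SNORA24 and SNORA81 by their fall. SNORA23 in the importin gene IPO7 (-1.55), SNORA48 in EIF4A1 (-1.42), SNORA12 in CWF19L1 (-1.33), SNORA62 in RPSA (-1.21), SNORA3A in RPL27A (-1.18) and SNORA79B in CCNB1IP1 (-1.15) fell in CN by the same rule. In NO the log2 fold changes of SNORA24, SNORA81 and SNORA10 were -1.50 ± 0.39, -1.44 ± 0.36 and -1.19 ± 0.35 (edgeR adjusted p = 0.0763, 0.0625 and 0.109), and of the 9 members named in this comparison SNORA79B was called there (-1.36). Without replicate 3 of HEK WT, the library that stood apart, SNORA24 (-1.57), SNORA81 (-1.36), SNORA10 (-1.19), SNORA23 (-1.04), SNORA48 (-0.93), SNORA12 (-1.27), SNORA62 (-1.24) and SNORA3A (-1.27) were called in NO as well. All of these but SNORA12 were also called by DESeq2 and with the 12 libraries in one fit. SNORA79B lost its call in NO without replicate 1 of HEK WT (-1.17), without replicate 1 or 2 of HEK UL1 KO (-1.18 and -1.34), with the replicate block (-1.36), with 10 counts in every library (-1.25) and with total counts (-0.91), and in CN with total counts (-0.94).

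The SNHG12 members were also among the largest falls in CN, where the knockout libraries had few counts of them. SNORA61 averaged 46.5 counts per CN library and had 1.09, 0.802 and 1.18 CPM in HEK WT against 0.137, 0.187 and 0.0507 in HEK UL1 KO (-2.97 ± 0.34, adjusted p = 8.5e-05, edgeR). SNORA16A fell by 2.54 ± 0.33 and SNORA44 by 2.00 ± 0.30 on the log2 scale (edgeR adjusted p = 0.00021 and 0.000492), again with no overlap of the genotypes. SNORA17A and SNORA17B, both in SNHG7, also fell (-2.35 ± 0.45 and -2.08 ± 0.39), from a mean of 12 and 21.3 counts per library. Without the 3 SNHG12 members, 24 of 114 members were lower in NO and 49 of 74 in CN.

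**Figure D2:**
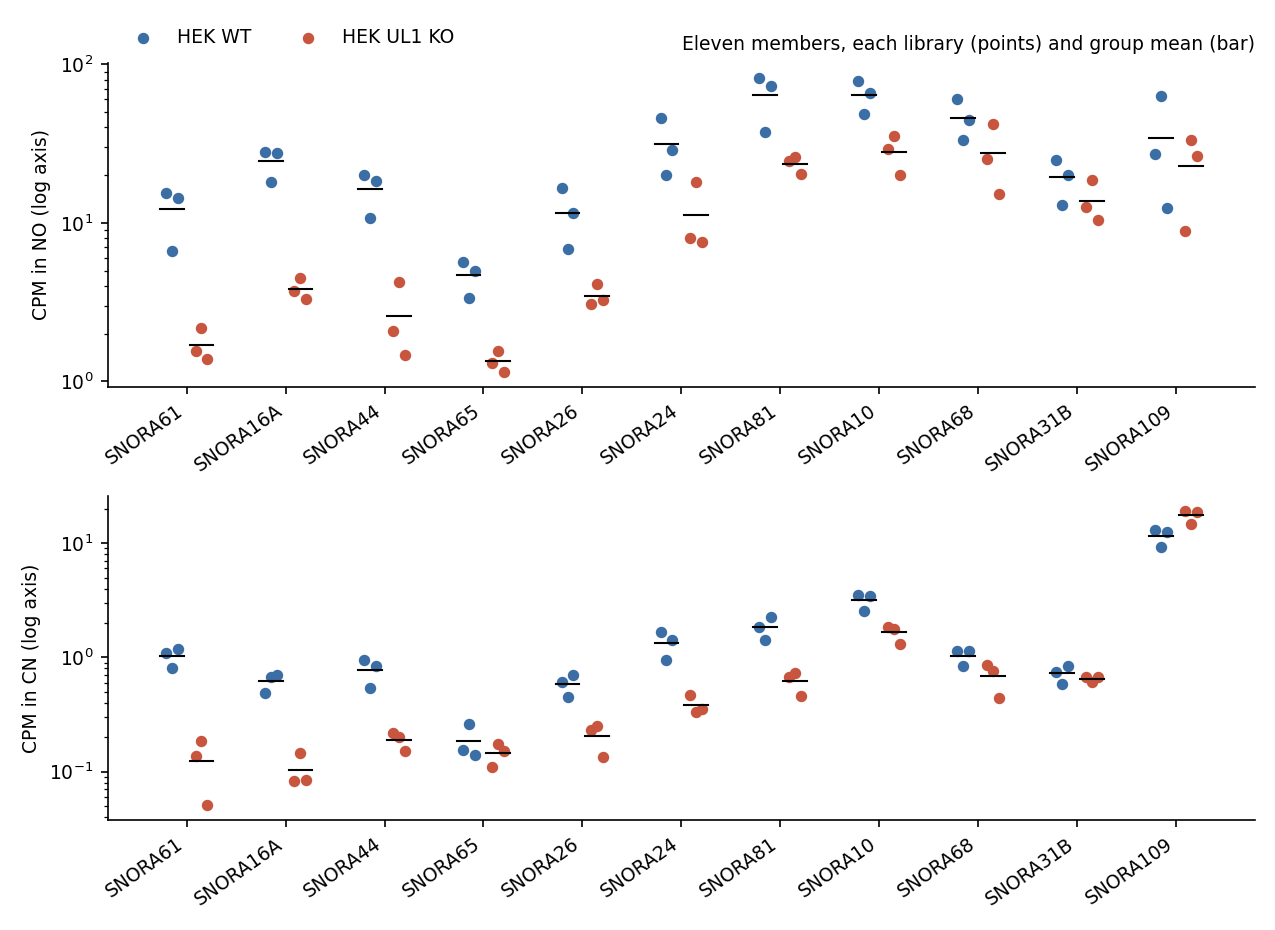
CPM of 11 members in NO (top) and CN (bottom) in each library (points, log axes), with the mean of each genotype as a bar. SNORA61, SNORA16A and SNORA44 are separated by the widest gap in both fractions, while the genotypes overlap for SNORA68 and SNORA31B, and SNORA109 is higher in HEK UL1 KO in CN.

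A few members rose in CN or had smaller falls there than most. SNORA109 was the only member called higher: it had 13.0, 9.24 and 12.5 CPM in CN of HEK WT and 19.0, 14.8 and 18.6 in HEK UL1 KO (log2 fold change 0.60 ± 0.13, adjusted p = 0.0052, edgeR; 0.51 and not called with all 12 libraries in one fit). The CN groups did not overlap. SNORA109 had no strand in GENCODE, so its sequence was not searched for box H and box ACA. In NO its CPM varied from 12.4 to 63.1 in HEK WT and from 8.90 to 33.5 in HEK UL1 KO, and the groups overlapped. SNORA68, one of the most abundant members, had 1.13, 0.838 and 1.14 CPM in CN of HEK WT against 0.862, 0.760 and 0.439 (-0.57 ± 0.25, adjusted p = 0.0888, edgeR). With no filter it was called lower in CN (-0.60). SNORA31B, which lies wholly in an untranslated stretch of the canonical TPT1 transcript, had 0.748, 0.586 and 0.848 CPM against 0.670, 0.613 and 0.675 (-0.16 ± 0.21, adjusted p = 0.574, edgeR). SNORA68, SNORA31B and SNORA109 were the 3 members nearest to 0 in CN among the 15 members with a mean of at least 50 counts in both fractions. Of these 15, 12 were lower and 1 higher in CN, and 15 were negative in NO, of which 1 was called. The mean is taken over both genotypes, so that a member can reach 50 counts through HEK WT alone, and these counts are a description.

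The falls in the 2 fractions came from different libraries of the same cell lines. Of 75 members tested in both, the log2 fold change was negative in both for 71. Every member tested in NO was negative there, so this count rests on the sign in CN. Of the 21 members lower in NO that could be tested in CN, 17 (81.0%) were lower there, beside 51 of all 75. Of the 51 members lower in CN and tested in NO, these 17 made up 33.3%, beside 21 of all 75. The overlap of calls is thus near what these shares alone would give, and it was not counted over all genes. The difference between the genotype effects was tested as an interaction over the 12 libraries, where 0.0846% of all genes had a higher and 0.0291% a lower effect in NO. Of 126 members, 0 differed by edgeR and 0 by DESeq2. At an unadjusted p under 0.05 edgeR gave 1 member in each direction, SNORA11G (2.34 ± 0.85) and SNORA65 (-1.32 ± 0.45, with a genotype effect of -1.81 in NO and -0.36 in CN), both named after their values had been seen. An effect that was called in one fraction alone is therefore not shown to differ between them.

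**Figure D3:**
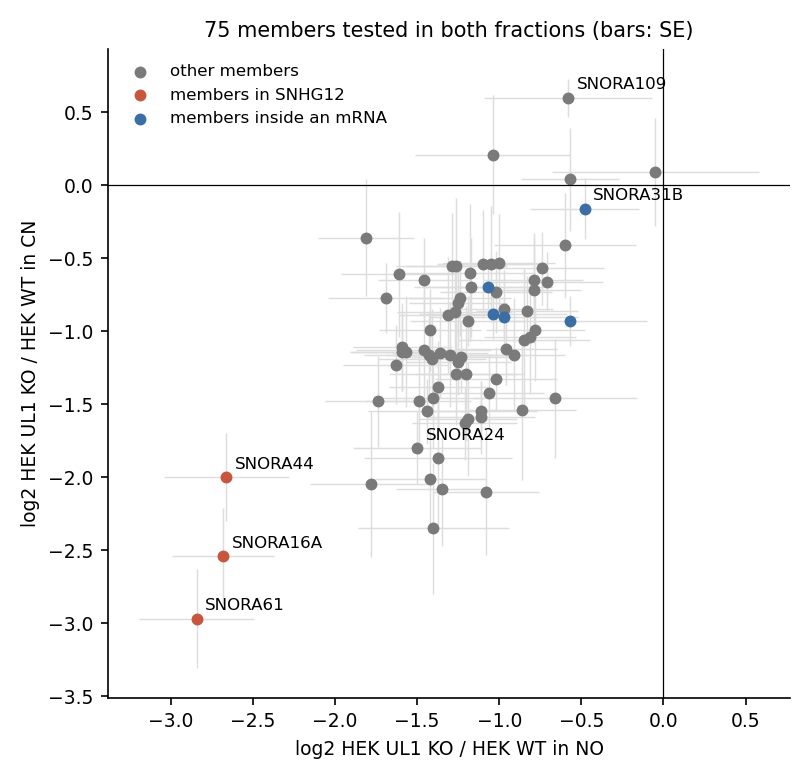
Log2 fold change of HEK UL1 KO against HEK WT in NO (horizontal) and in CN (vertical) for the 75 members tested in both, with SE bars. 71 points lie in the lower left, those of the 3 SNHG12 members farthest out, and SNORA109 lies above 0 in CN.

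Host genes were lower as well, but by less than the RNAs in their introns. Of 99 host genes tested in NO, 5 were lower (RPL10, SNHG7, CSKMT, SNHG12 and DANCR) and 0 higher, with 0 higher by DESeq2 and 1 at an unadjusted p under 0.05. These 5.05% lower stand beside 0.574% of all genes tested. In CN 59 hosts were lower and 7 higher, or 59.6% and 7.07%, beside 22.3% and 15.6% of all genes. Without replicate 3 of HEK WT 63 hosts were lower in NO, and without any other NO library 1 to 5. The median log2 fold change over hosts was -0.64 in NO and -0.31 in CN. Among members tested together with their host, the log2 fold change of the member was below that of the host for 103 of 107 in NO and for 60 of 65 in CN. In CN the host was also lower for 37 of 45 lower members, was not called for 7, and was higher for 1. RPL27A was near 0 in CN (-0.07 ± 0.08), where its member SNORA3A fell by 1.18 ± 0.24. RPL12 fell by 0.42 ± 0.07 in CN, where SNORA65 had -0.36 ± 0.40. Which of these rows received reads that overlap a member and its host is not given in the sources used here.

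The share of calls was also read by host class. Of 15 members in non-coding RNA genes tested in CN, 14 were lower (median -1.48). This stood beside 17 of 21 in genes for ribosomal proteins and translation factors (median -1.18) and 15 of 30 in other protein-coding genes (median -0.99). In NO the counts were 7 of 19, 8 of 26 and 12 of 57, with medians of -1.40, -1.32 and -1.17. The 3 SNHG12 members are all in the non-coding class, and without them it had 4 of 16 lower in NO (25%, beside 30.8% for the ribosomal protein and translation factor class) and 11 of 12 in CN. These non-coding genes, among them the SNHG genes (small nucleolar RNA host genes), have spliced transcripts that are known chiefly as carriers of snoRNAs. The differences between host classes were not tested.

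SNHG12 was the most strongly lowered host. Its row fell by 2.64 ± 0.36 in NO and by 1.82 ± 0.14 in CN on the log2 scale (edgeR adjusted p = 0.00141 and 8.62e-06). The box C/D RNA SNORD99, from the same gene, fell by 2.41 ± 0.38 in NO. Because of this the rows that reach within 100 kb of SNHG12 (chr1:28578538-28582983) were read out, a window chosen after the values had been seen. Leaving out the members and SNHG12 and SNORD99, whose falls prompted the window, 12 rows remained there. In NO 6 of the 9 tested were lower (66.7%, beside 0.574% of all genes), in CN 9 of 9 (beside 22.3%), and 0 were higher in either fraction (0 at an unadjusted p under 0.05 and 0 by DESeq2). The rows included SNHG3 (-1.97 in NO and -1.40 in CN), RCC1, whose annotated span overlaps SNHG3 (-1.93 and -1.15), SNORA73A (-2.19 and -2.27), SNORA73B (-1.93 and -2.11), TRNAU1AP (-1.39 and -1.36) and PHACTR4 (-1.21 and -1.01). TAF12 and the minor spliceosomal RNA RNU11 fell in CN (-1.03 and -1.59), with -1.25 and -1.42 in NO. GMEB1, at the far end, fell by 0.37 ± 0.10 in CN and had -0.84 ± 0.28 in NO. Why genes of this stretch were lower together was not tested.

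**Figure D4:**
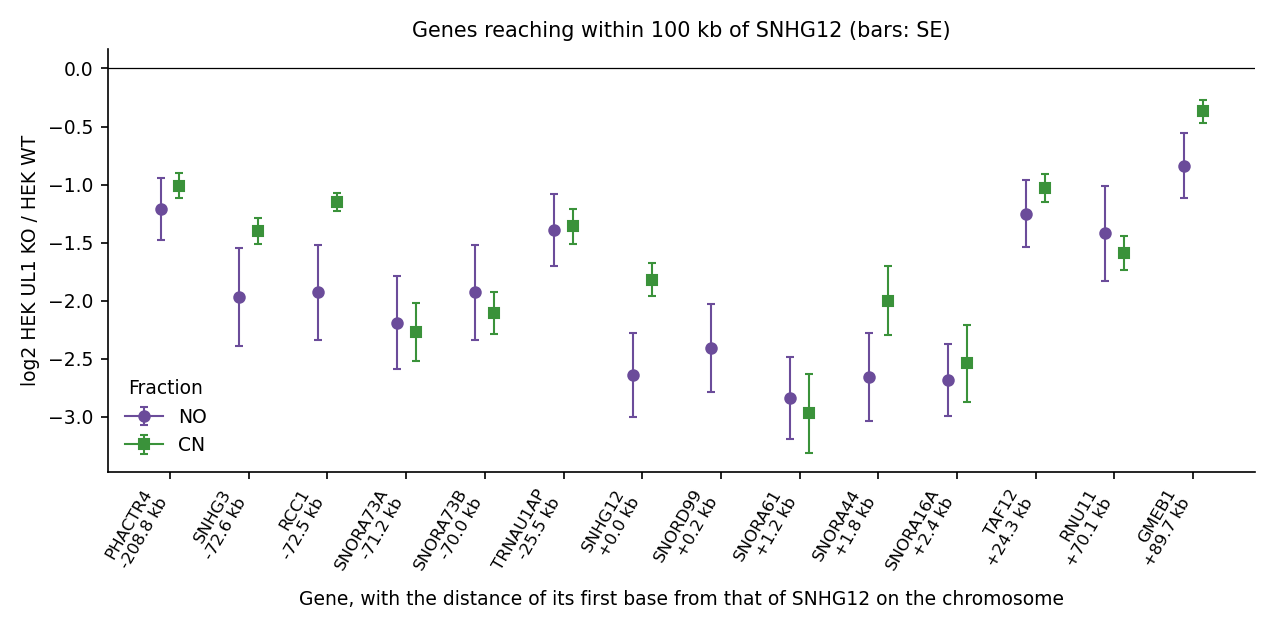
Log2 fold change of HEK UL1 KO against HEK WT in NO (circles) and CN (squares), with SE, for tested genes that reach within 100 kb of SNHG12, in the order of their first base on the chromosome. All points are below 0, and the lowest are those of SNORA61 in SNHG12.

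The mRNAs for proteins of the H/ACA pathway had smaller log2 fold changes than most of the guide RNAs. In NO, 0 of 16 pathway genes were called, and DESeq2 called 1 lower. At an unadjusted p under 0.05, 4 were lower and 0 higher in NO. Without replicate 3 of HEK WT 6 were called lower there. In CN 8 of the 16 were lower (50%) and 0 higher, beside 22.3% lower and 15.6% higher of all genes tested. The median log2 fold change of the pathway genes in CN was -0.28. Among the core proteins, DKC1, the synthase itself, fell by 0.67 ± 0.09 and GAR1 by 0.65 ± 0.11 in CN (edgeR adjusted p = 0.000177 and 0.000958). NHP2 had -0.30 ± 0.14 and NOP10 0.13 ± 0.12 in CN. Of the assembly factors, SHQ1, the chaperone that holds dyskerin before assembly, fell by 0.96 ± 0.09 in CN, RUVBL2 by 0.39 ± 0.13, RPAP3 by 0.33 ± 0.08 and RUVBL1 by 0.25 ± 0.07. NAF1 (-0.03 ± 0.09), which occupies the place of GAR1 in the immature particle, and PIH1D1 (0.08 ± 0.18) were not called. Of the enzymes that act on 3' ends, the deadenylase PARN fell by 0.39 ± 0.07 and the oligoadenylating polymerase TENT4B by 0.40 ± 0.09, and EXOSC10 (-0.12 ± 0.07) and TOE1 (0.18 ± 0.22) were not called. The Cajal body genes COIL (-0.15 ± 0.09) and WRAP53 (-0.22 ± 0.21) were not called either. With total counts 2 of the 16 pathway genes were lower in CN.

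Box C/D snoRNAs served as a second class of nucleolar RNAs. Of 155 box C/D rows tested in NO, 23 were lower (14.8%, median -0.96), and of 88 tested in CN, 24 were lower and 2 higher (27.3% lower, median -0.56). The corresponding shares of the members were 23.1% in NO and 67.5% in CN, and those of all genes tested were 0.574% and 22.3%. The share of box C/D rows called lower in CN was thus near that of all genes. Their share called higher in CN was 2.27%, beside 15.6% of all genes, and 76 of the 88 were negative. The difference between the classes was not tested feature by feature; the ratios of summed counts per library are those given above.

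Where the members are found in the cell was read from NO against CN within each genotype. These comparisons use the same libraries as the genotype comparisons. In HEK WT, 103 of 117 members tested were higher in NO and 4 were lower, beside 31.9% and 20.9% of all genes, and the median log2 difference was 3.38. In HEK UL1 KO, 94 of 110 were higher and 6 lower, beside 40.7% and 35.6% of all genes, with a median of 3.18. The share of counts on the members was 12.2 times larger in NO than in CN in HEK WT and 9.05 times in HEK UL1 KO (exact permutation p = 0.1 for each). Box C/D rows had medians of 3.66 and 3.07.

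The members most raised in NO of HEK WT were SNORA68B in ANKRD27 (log2 difference 5.34 ± 0.45), SNORA68 (5.03 ± 0.30), SNORA77B in RANBP1 (4.94 ± 0.38), SNORA16A in SNHG12 (4.87 ± 0.30) and SNORA49 in EP400 (4.72 ± 0.29). Their differences were within their errors of each other. Of the hosts named here, SNHG12 was raised by 3.56 and ANKRD27 by 0.60, whereas RANBP1 (-0.06) and EP400 (0.08) were not called.

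The 4 members that were lower in NO than in CN in HEK WT were SNORA100 and the rows SNORA105A, SNORA105B and SNORA105C. SNORA100 had a log2 difference of -1.54 ± 0.25, SNORA105A of -1.12 ± 0.22, SNORA105B of -1.11 ± 0.21 and SNORA105C of -0.99 (edgeR adjusted p = 0.00396, 0.00449, 0.00447 and 0.0104). SNORA100 (chr1:244854087-244854217) lies wholly within an untranslated exon of HNRNPU, and SNORA105B (chr2:197486788-197486903) within one of HSPD1, the gene of a mitochondrial chaperonin. SNORA105A on chromosome 5 and SNORA105C on chromosome 12 match HSPD1 transcripts over 100% and 98.3% of their bases, in a search of both strands. SNORA86 (chr10:32901334-32901472) likewise lies at the position of an untranslated exon, in ITGB1. These 5 members had no strand in GENCODE, so whether they are sense or antisense to the mRNA is not known. SNORA31B, which the annotation also places wholly in an untranslated stretch (of TPT1), went the other way and was raised in NO (4.29 ± 0.31). In HEK WT the mRNAs HNRNPU and HSPD1 had log2 differences of -0.49 and -0.58 between NO and CN, neither called.

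Between genotypes these members can be set beside the mRNAs at the same positions. In CN SNORA105B had 4.87, 4.74 and 3.997 CPM in HEK WT and 2.42, 2.80 and 2.04 in HEK UL1 KO (-0.90 ± 0.13), where HSPD1 fell by 0.57 ± 0.07. SNORA100 fell by 0.93 ± 0.17 and HNRNPU by 0.48 ± 0.08. With all 12 libraries in one fit SNORA105B and SNORA100 were not called in CN (-0.98 and -1.02). SNORA86, with a mean of 9.33 counts, had 0.45 ± 0.43, and ITGB1 rose by 0.45 ± 0.07. With the strand of these rows and the strand setting of the counting unknown, their reads and those of the mRNAs cannot be told apart in the counts. Without the 11 members that overlap a canonical exon of another gene, 27 of 108 members were lower in NO and 48 of 69 in CN, with medians of -1.24 and -1.14.

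**Figure D5:**
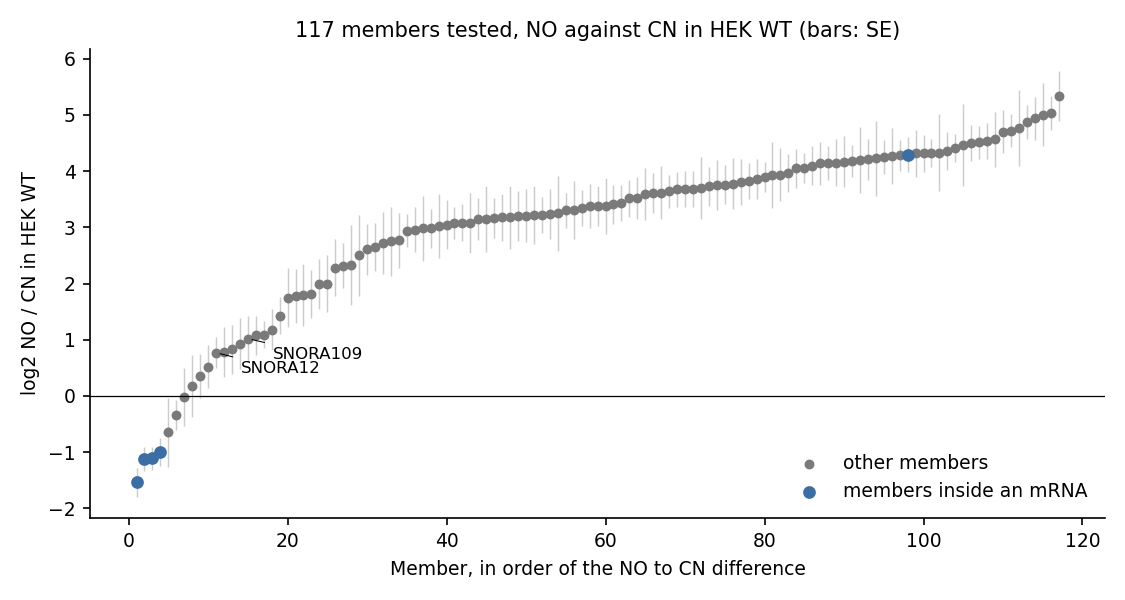
Log2 difference between NO and CN in HEK WT, with SE, for the 117 members tested, in ascending order. Most members lie between 2 and 5. Of the 5 tested members marked as inside an mRNA by position or sequence, 4 are the lowest of all and had no strand, while SNORA31B lies at 4.29.

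Levels between members were compared as CPM per kilobase of annotated length, scaled over the 12 libraries. Over the 12 libraries the 5 most abundant members were SNORA109 (157.8), SNORA10 (148.9), SNORA68 (113.1), SNORA81 (102.4) and SNORA24 (68.4), followed by SNORA7A (60.5). SNORA109 reached the top through CN, where it had 117 ± 21.95 CPM per kilobase in HEK WT, against 30.9 ± 5.57 for SNORA10 (SD, n = 3). In NO of HEK WT the order was SNORA10 (378 ± 92.6), SNORA81 (284 ± 109), SNORA68 (270 ± 79.2), SNORA109 (205 ± 151) and SNORA24 (188 ± 77.0), with neighbours closer than their spread. SNORA109, on the X chromosome (chrX:55183480-55183607), lies in no gene of GENCODE and was alone among these 5 in not being called higher in NO in either genotype (1.02 ± 0.41 in HEK WT, adjusted p = 0.0568, and -0.22 ± 0.35 in HEK UL1 KO, adjusted p = 0.587, edgeR; it was called in HEK WT without replicate 3 of NO, at 1.38, with total counts, at 1.23, with no filter, at 0.82, and with 10 counts in every library, at 1.22). The 5 most counted members took 29.8% of all member counts and the 10 most counted 43.5%.

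At the other end, 7 members had 0 counts in every library, and 63 members were not tested in NO and 103 in CN. Several rows are near-copies of each other and share reads: SNORA59A and SNORA59B, SNORA15B-1 and SNORA15B-2, and SNORA11D and SNORA11E are identical over 100% of their bases, SNORA7A and SNORA7B over 98.6%, and SNORA10 and SNORA10B over 98.5%. The values of these rows are uncertain, since up to 20 alignments per read were allowed.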

How the data were processed

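The authors trimmed reads of 75 bases with cutadapt 3.7, aligned them to GRCh38 with STAR 2.7.8, keeping reads with 20 or fewer alignments, and used featureCounts for counting (versions from the submitters' processing notes). The authors deposited the raw counts, which are not normalized, in a table for each fraction. The counting options, strand setting and annotation version are not given in the sources used here. All 12 columns were matched to their labels.

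Counts were analysed with R 4.3.3 and edgeR 4.0.16 (filterByExpr, minimum count 10, minimum total 15; TMM; quasi-likelihood F test; Benjamini-Hochberg adjustment over all genes tested; calls under 0.05). Standard errors are the log2 fold change divided by the square root of F. Each genotype comparison used the 6 libraries of its fraction, and the interaction used 12. DESeq2 1.42.0 and further normalizations, filters, a replicate block and fits without each library were alternatives. Values by library were compared with exact permutation tests in scipy 1.17.1.

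The members and lists were chosen with earlier results of these data known. Named members were, per fraction, the 8 with the largest falls and rises at an adjusted p under 0.05, without overlap of the genotypes and with a mean of at least 50 counts, the 5 with the highest CPM per kilobase, the 5 most and 3 least raised in NO, the 3 nearest 0 in CN and the 3 largest interactions, of which there were 0. The 16 pathway genes were named whatever their values. SNORA17A, SNORA17B, SNORA86, SNORA105C, SNORA7A and the genes around SNHG12 were named after their values had been seen.

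Positions came from the RefSeq table of GRCh38.p14, in which all 180 members were found, strands and hosts from GENCODE 44, sequences from GRCh38, and similarity from blastn 2.17.0. A host is a gene on the same strand that contains the member. On simulated counts with 200 genes changed by 2 on the log2 scale, edgeR recovered 197 in NO, 200 in CN and 175 in the interaction. False calls were 9.63%, 6.10% and 7.41% of the calls. The changed genes were drawn only from those above a floor of mean CPM. Their change was larger than the median of the members in NO (-1.20) or CN (-1.11). The recovery therefore does not measure the power for members with few counts or smaller changes. The chi-square per gene between libraries of one group was 17.1 or more, so 0 pairs were treated as one library. Some items are not reported here.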

Additional observations from a re-analysis of the deposited data

How the results depend on the processing

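The medians of the members and the called log2 fold changes of named genes kept their sign under every alternative run. In NO, 27 members were called. DESeq2 called 58, total counts 0, no filter 65, 10 counts in every library 8, the replicate block 13, all 12 libraries in one fit 55, and leaving out 1 library 4 to 87. In CN, 53 of 77 were called, against 28 with total counts, 26 of 36 with 10 counts in every library and 35 to 54 with 1 library left out. With 10 counts in every library 70 of 73 members were called for NO against CN in HEK WT and 30 of 34 in HEK UL1 KO. In the main fits 107 of 117 and 100 of 110 were called, and leaving out 1 library gave 102 to 110 and 97 to 108. The interaction had 0 calls under every alternative. The median of the members in NO (-1.20) became -0.83 with total counts and ranged from -1.36 to -0.92 without 1 library. In CN (-1.11) it became -1.01 with DESeq2, -0.90 with total counts, -0.80 with 10 counts in every library and -1.05 without the SNHG12 members, an alternative chosen after the data had been seen, and ranged from -1.19 to -0.92. For NO against CN in HEK WT (3.38) it became 2.87 with DESeq2, 3.78 with total counts, 2.82 with no filter, 3.89 with 10 counts in every library and 3.03 with all 12 libraries, and 3.10 to 3.43 without 1 library. In HEK UL1 KO (3.18) it became 2.34, 3.93, 2.56, 3.59 and 3.09, and 3.29 with TMM without rRNA or short RNA genes, and 2.85 to 3.20 without 1 library. Pathway genes called in NO (0) became 1 with DESeq2, no filter or all 12 libraries and 0 to 6 without 1 library, and in CN (8) became 2 with total counts or all 12 libraries, and 6 to 8 without 1 library. Host genes called in NO (5) became 27, 0, 10, 3, 1 and 28 with DESeq2, total counts, no filter, 10 counts in every library, the replicate block and all 12 libraries, and 1 to 63 without 1 library. In CN (66) they became 23 with total counts, 20 with all 12 libraries and 52 to 61 without 1 library. The cause of these changes was not tested, except that the stricter filter tests fewer members. Whether same-numbered libraries came from a shared culture is not given in the sources used here. The correlations of their deviations from the group means were -0.53 to -0.0551, which cannot decide it with 3 libraries per group. Of the log2 fold changes of named genes, 69 lost and 45 gained a call over all alternatives, 21 of the losses with total counts, and 1820 did neither. At 2454 to 5888 member counts per library, depth limits the comparison in CN, where 103 members could not be tested.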
